A study of Mus musculus with 39 samples.

Results

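The libraries came from tumours of mice given an isotype control antibody, 9 labelled bulk tumour and 10 made from CD8+ T cells sorted from tumours, of 39 libraries in all. They were chosen by their labels alone: every isotype library of either kind was taken, and none that received anti-PD-1. CD8+ T cells are the killer lymphocytes of a tumour infiltrate. C57BL/6 mice labelled WT had received, by faecal microbiota transplant (FMT), stool of human volunteers (labelled HV) that the labels describe as treated for 6 days with CZA or with CZA+DAV132. The labels give CZA only as an abbreviation, and DAV132 is described as an adsorbent acting in the colon. At 2 weeks after the FMT the mice were implanted under the skin with MCA-205, a fibrosarcoma line syngeneic to C57BL/6. Once tumours measured 25 to 35 mm2, each mouse had 4 injections of 250 µg of the isotype antibody, clone 2A3, at intervals of 3 days, and tumours were taken 2 days after the last. Ages are not stated in the labels. The groups were CZA with isotype (5 libraries labelled bulk tumour, 5 CD8 libraries) and CZA+DAV132 with isotype (4 and 5). The labels do not tie a library to its own mouse, so p-values reflect how much these libraries varied, which may be technical. The CD8 libraries came from a repeat of the experiment with the same FMT material. The label, the experiment and the stated preparation (frozen tumour or sorted cells) therefore cannot be told apart, and every difference below is one between these sets of libraries.

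A CD8+ T cell is recognised by its T cell receptor, made from rearranged variable and joining segments and a constant region, by the CD3 chains that signal from it, and by the CD8 co-receptor that binds MHC class I. It kills through granules holding perforin and granzymes, and it crawls and forms contacts with targets by remodelling actin. A whole subcutaneous fibrosarcoma also holds the tumour cells, which make collagens and other matrix proteins, together with macrophages, vessels and blood.

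Values were TPM, transcript abundance per length scaled to a fixed total in each library. TPM keeps no record of reads, so depth is unknown for every value, and no counting interval can be given. The listed genes summed to between 978176 and 991092 TPM in each of the 19 libraries. Between 11885 and 14549 genes were above 0 in the libraries labelled bulk tumour and between 15095 and 19236 in the CD8 libraries. The spread within a group was larger in the former, with a median SD over genes of 0.925 against 0.311 on the log2 scale, and it was larger for 89.3% of genes. Spearman correlations of whole profiles lay between 0.655 and 0.863 among the libraries labelled bulk tumour, between 0.907 and 0.953 among the CD8 libraries, and between 0.611 and 0.821 across the sets. Of 5987 genes at 5 TPM or more in every CD8 library, 581 (9.70%) were listed at 0 in at least 1 library labelled bulk tumour. The libraries T985 and CD8-1 stood apart by the share of TPM in repeat-bearing entries (13.5% and 25.3%), and T986 and CD8-2 by Col1a1, which encodes a chain of type I collagen.

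Differences are given as log2(TPM + 1) in the libraries labelled bulk tumour minus that in the CD8 libraries, with the standard error (SE). A gene was called when its adjusted p in limma was under 0.05 and the difference was at least 1 in size. This scale understates the change of low genes. Of 13278 genes tested, 2052 (15.5%) were called higher and 2018 (15.2%) lower in the libraries labelled bulk tumour, and 30.7% were called in all. The median difference was 0.08. Other scalings are named where they end the call of a named gene that was followed across them. They were median-ratio scaling, quantile normalization, rescaling without Actb, and length-centring. In length-centring, each library was centred within bins of coding transcript length. With median-ratio scaling the median moved to -0.22, and 1099 genes were called higher against 2929 lower. That scaling took the share of higher calls from 50.4% to 27.3%, whereas rescaling without Actb, the most abundant actin gene, took it to 60.1%. No library of either set overlapped the other for 943 genes that were higher (7.1% of those tested) and 565 that were lower (4.26%). Within the CZA arm 1737 genes (13.1%) were called higher and 2161 (16.3%) lower, 29.4% in all. Within the CZA+DAV132 arm 1791 (13.5%) were called higher and 993 (7.48%) lower, 21% in all. Of the 4070 genes called over both arms, 4044 had the same sign in each arm. These calls rest on the mean of the arm differences, so that agreement follows largely from how the genes were selected. Without T985 and CD8-1 there were 2053 higher and 2103 lower calls, and without T986 and CD8-2 there were 2121 and 1974.

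Transcripts of the CD8 T cell itself were abundant in both sets, and neither chain of the CD8 co-receptor was called. Below, where 3 TPM values are given for a set, they are its lowest, median and highest library. Cd8a, the alpha chain of the co-receptor, stood at 206, 311 and 408 TPM in the set labelled bulk tumour and at 208, 275 and 402 TPM in the CD8 libraries. The ranges lay over each other, and the difference was 0.21 ± 0.14 with an adjusted p of 0.264 (limma). It turned negative, to -0.22, with median-ratio scaling. Cd8b1, the beta chain, stood at 297, 418 and 569.7 TPM against 469.7, 588 and 818 TPM. Its difference of -0.52 ± 0.14 had an adjusted p of 0.00449 (limma) but was under the size needed for a call. It was -0.95 with median-ratio scaling and 0.02 when length-centred. In bulk RNA, fewer cells of a type and less RNA per cell cannot be told apart, and this holds for every cell type below.

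Cd3d, Cd3e and Trac, of the T cell receptor complex, were called lower in the libraries labelled bulk tumour. Cd3d, a CD3 chain, measured 291, 421 and 651 TPM there and 867, 1041 and 1152 TPM in the CD8 libraries, with no overlap and a difference of -1.26 ± 0.12. Cd3e, another CD3 chain, measured 235, 384 and 502 TPM against 652, 779 and 969.7 TPM, again with no overlap. Its difference of -1.04 ± 0.14 (adjusted p 5.47e-06, limma) fell just under the size for a call without T028 (-0.99) or without T985 (-0.96). Trac, the constant region of the receptor alpha chain, measured 505, 845 and 1331 TPM against 886, 1744 and 2631 TPM, and its ranges overlapped, with a difference of -1.17 ± 0.19. Sh2d1a, an adaptor for receptors of the SLAM family, was called lower at -1.45 ± 0.47. These calls depended on the scaling. When length-centred, Cd3d (-0.73), Cd3e (-0.51) and Sh2d1a (-0.65, adjusted p 0.30, limma) were not called. With quantile normalization Cd3d (-0.98), Cd3e (-0.74) and Trac (-0.985) were under the size, and after rescaling without Actb so were Cd3e (-0.86) and Trac (-0.985).

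Other genes of the same list were higher. Thy1, a surface glycoprotein of T cells, measured 377, 551 and 816 TPM in the set labelled bulk tumour and 147, 229.5 and 303 TPM in the CD8 libraries, and every library of the first set was above every library of the second. Cd28, the co-stimulatory receptor, was called higher at 1.06 ± 0.21, but was under the size for a call without T028 (0.98) or T987 (0.94). Over the 20 tested genes of T cell receptor and signalling, 2 were called higher and 4 lower, beside 15.5% and 15.2% of all genes. Their median was -0.03, beside 0.08 for all genes. The median was -0.46 with median-ratio scaling and 0.15 after rescaling without Actb, so the list had no direction that held under each scaling. Ptprc, which encodes CD45, the phosphatase of all leukocytes, was at 377, 482 and 649 TPM against 142, 159.8 and 197 TPM, a difference of 1.53 ± 0.11 without overlap. Itgb2, an integrin chain of leukocytes, was also called higher (1.62 ± 0.13), while Cd52, a short surface glycoprotein, and Ptprcap, which binds CD45, were called lower (-2.42 ± 0.15 and -2.24 ± 0.17). Under the size for a call were Thy1 (0.89) and Cd28 (0.64) with median-ratio scaling, Ptprc (0.94) and Cd28 (0.51) when length-centred, and Cd28 (0.73) with quantile normalization.

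The rearranging segments of the receptor were almost all lower or not called. Of 120 variable segments tested, 98 were called lower and none higher, beside 15.2% and 15.5% of all genes, with a median of -2.22. Their summed level was 388, 635 and 1036 TPM in the libraries with the tumour label and 1405, 2455 and 4268 TPM in the CD8 libraries. The sums did not overlap. The joining segments went a mixed way: 33 of 62 were called lower and 4 higher, yet their summed level was 4158, 7406 and 12985 TPM in the libraries with the tumour label and 2891, 4699 and 6123 TPM in the CD8 libraries. These segments are short and alike, so their division among entries is uncertain.

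**Figure D1:**
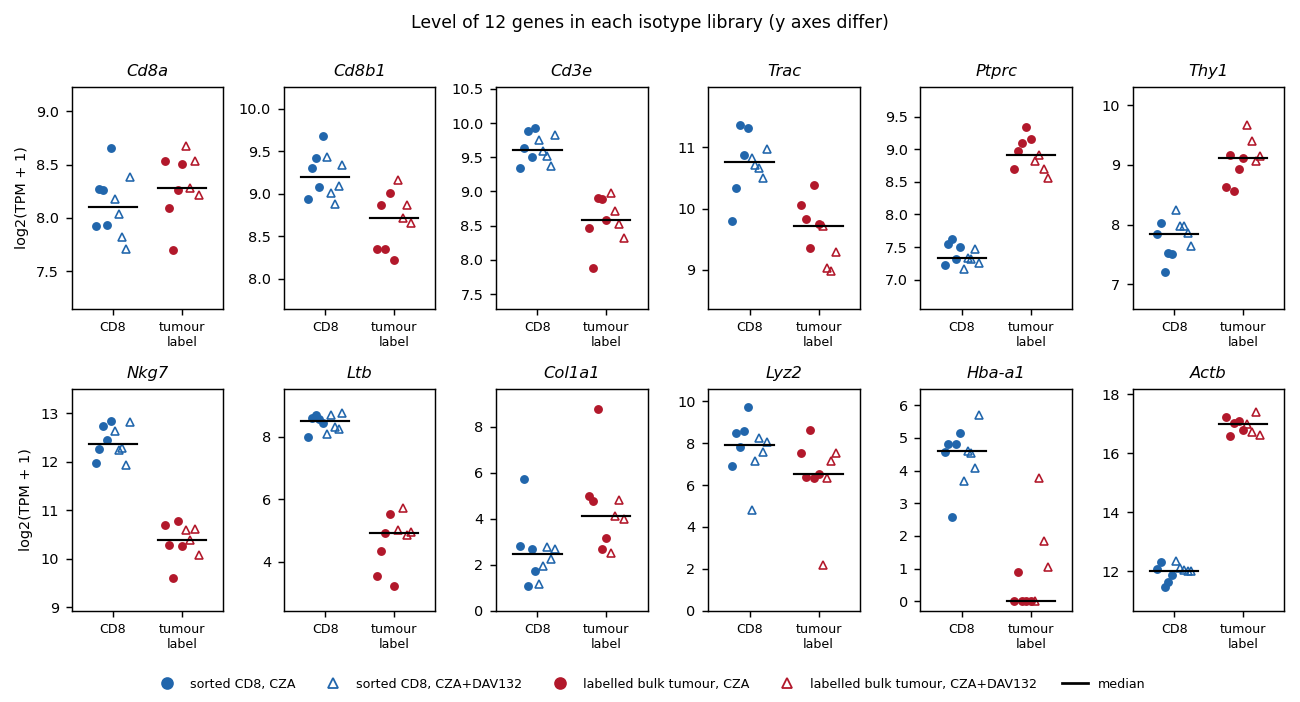
Each point is the log2(TPM + 1) level of a gene in an isotype library, with circles for CZA, open triangles for CZA+DAV132 and a bar at the median of a set; y axes differ between the 12 panels. Cd8a ranges overlap, Cd3e and Nkg7 lie lower and Ptprc, Thy1 and Actb higher in the libraries labelled bulk tumour, and Col1a1 spans 4.73 to 431 TPM there.

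The label bulk tumour was then checked against markers of the cells a fibrosarcoma should hold. Summed over 18 fibroblast and fibrosarcoma genes, the level was 47.3, 173 and 2430 TPM in the libraries with the tumour label and 14.4, 115 and 635 TPM in the CD8 libraries. The ranges overlapped, with T986 the highest of the first set and CD8-2 of the second. Col1a1 stood at 4.73, 16.2 and 431 TPM against 1.11, 4.53 and 52.1 TPM, a difference of 1.89 ± 0.68 with an adjusted p of 0.0311 (limma). The call ended when any 1 of T024 (adjusted p 0.0518), T027 (0.0639), CD8-3 (0.0609), CD8-5 (0.0566) or CD8-11 (0.0551) was left out, and it held without T986 and CD8-2 together (difference 1.77, adjusted p 0.00262) but not without T985 and CD8-1 together (adjusted p 0.0541). Fstl1, a secreted glycoprotein of mesenchymal cells, was called higher at 1.45 ± 0.41. With array weights, which let the spread differ between the sets, neither was called (adjusted p 0.13 for Col1a1 and 0.065 for Fstl1, limma), and Col1a1 was also not called with median-ratio scaling (adjusted p 0.078, limma) or when length-centred (0.20). Sparc, a collagen-binding matrix protein, was not called (-0.43 ± 0.90). In all, 2 of 14 tested fibroblast genes were called higher and none lower, beside 15.5% and 15.2% of all genes. Their median was 0.16 and fell to -0.13 with median-ratio scaling or length-centring. The T cell markers of the same libraries summed to 8058, 8559 and 13276 TPM in the libraries with the tumour label and 9069, 13070 and 15551 TPM in the CD8 libraries.

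Ratios within a library do not depend on its total, although they are not adjusted for transcript length, and 3 were tested by exact permutation, two-sided. The T cell to fibroblast ratio had a median of 57.7 in the libraries labelled bulk tumour (3.52 to 275) and 97.7 in the CD8 libraries (17.9 to 974). The log2 difference of means was -1.37 with p = 0.0948 in the exact permutation test, unchanged by Benjamini-Hochberg adjustment over the 3, and was -1.55 in the CZA arm and -1.08 in the CZA+DAV132 arm. It passed the threshold without T022 (p = 0.0415, exact permutation) or without CD8-2 (p = 0.0275, exact permutation). The ratio of summed T cell to summed macrophage markers was higher in the libraries labelled bulk tumour, with medians of 5.35 (3.10 to 6.55) and 2.81 (2.23 to 4.82), a log2 difference of 0.71 (exact permutation p = 0.00236, adjusted 0.00539). The ratio of Cd8a and Cd8b1 to the CD3 chains was also higher there, with medians of 0.287 (0.206 to 0.352) and 0.208 (0.176 to 0.254), a log2 difference of 0.38 (exact permutation p = 0.00359, adjusted 0.00539). The median coding length was 1442.5 bases for the macrophage genes and 2245 for the T cell genes, and the part of length in the T cell to macrophage ratio was not tested. Ly6c2, listed as a monocyte gene, had the highest level of the macrophage list. Its median was 799 TPM under the tumour label, beside a median list sum of 1958 TPM. For the CD8 set it was 2023 TPM beside 4605 TPM. The ratio was not tested without Ly6c2, nor was the cell type that made its transcripts. In every library labelled bulk tumour the T cell sum was above the fibroblast sum, by a ratio of at least 3.52. Whether these libraries hold whole tumour was not tested, and they are called by their label throughout.

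Macrophage and monocyte genes were lower or not called. Of 20 tested, 5 were called lower and none higher, beside 15.2% and 15.5% of all genes, with a median of -1.06. The list summed to 1378, 1958 and 2756 TPM in the libraries with the tumour label and 2627, 4605 and 6869 TPM in the CD8 libraries. Ly6c2 made up a large part of these sums, with medians of 799 and 2023 TPM. C1qa, a chain of the first complement component, stood at 0, 10.2 and 36.9 TPM against 3.95, 47.6 and 122 TPM, a difference of -2.30 ± 0.61. Tyrobp and Fcer1g, signalling adaptors of myeloid and NK cells, were called lower at -2.10 ± 0.39 and -2.91 ± 0.27, as were Cd14, the endotoxin co-receptor (-2.56 ± 0.58), and Ly6c2, a marker of inflammatory monocytes (-1.37 ± 0.24). Lyz2, lysozyme, was not called: 3.45, 90.6 and 389.7 TPM against 26.98, 243 and 838 TPM, with an adjusted p of 0.0987 (limma). The genes of MHC class II, which antigen-presenting cells use to show peptides, were called lower in 2 of 9, H2-DMa (-2.42 ± 0.40) and H2-Oa (-2.20 ± 0.32), and Cd74, the invariant chain, missed the threshold (-1.10 ± 0.45, adjusted p 0.0523, limma). When length-centred, 2 macrophage genes were called lower and the median was -0.41. C1qa (-1.31, adjusted p 0.10), Tyrobp (-0.84, adjusted p 0.092) and Ly6c2 (-0.11, adjusted p 0.78) were then not called (limma). With median-ratio scaling 11 were lower, at a median of -1.45, Lyz2 (-1.71) and Cd74 (-1.53) among the genes called.

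Blood-borne transcripts were lower too. Of 5 erythroid genes tested, 4 were called lower, beside 15.2% of all genes, with a median of -2.61. When length-centred, 2 were called lower and 1 higher, with a median of -1.35. The beta globins Hbb-bs (-1.26, adjusted p 0.085) and Hbb-bt (-1.35, adjusted p 0.068) were then not called (limma). Hba-a1, an alpha globin, was listed at 0 in 5 of the 9 libraries labelled bulk tumour, with 0, 0 and 12.8 TPM, against 5.01, 23.1 and 51.5 TPM in the CD8 libraries, a difference of -3.53 ± 0.44. Its near-identical copy Hba-a2 gave -3.10 ± 0.44, and reads may be divided between them. Pf4, platelet factor 4, was called lower at -3.59 ± 0.63, and it was the 1 gene tested of 5 platelet genes listed.

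Lists of other leukocytes were short and held calls in both directions, beside 15.5% of all genes called higher and 15.2% lower. Of 5 B and plasma cell genes tested, 2 were called lower and 1 higher. Igkc, the kappa light chain, was called lower (-2.79 ± 0.73). Ighm, the mu heavy chain, was called lower (-1.60 ± 0.56), but not without T022 (adjusted p 0.0678), and Pax5, a B cell transcription factor, was called higher (1.23 ± 0.38), but was under the size without CD8-5 (0.98). Of 7 CD4 and regulatory T cell genes tested, 1 was called higher and 2 lower. Cd4, the helper co-receptor, and Foxp3, the regulatory factor, were not called (0.29 ± 0.30 and -0.47 ± 0.26). Ikzf2, a transcription factor of regulatory T cells, was called higher (1.47 ± 0.22), while Cd40lg, a helper ligand, and Ccr8, a chemokine receptor, were lower (-1.97 ± 0.26 and -1.49 ± 0.45). Cd40lg was low in both sets, with medians of 0 TPM under the tumour label and 3.85 TPM in the CD8 libraries. In NK cells, 1 of 9 was called, the chemokine Xcl1 (-1.61 ± 0.17), which CD8 T cells also make. None of 4 gamma-delta T cell genes was called. The chemokine Ccl17 was the single dendritic cell gene called of 10 (-1.55 ± 0.59), and it held its call in 8 of 19 fits that each left out a library. Of 5 neutrophil genes, Cxcr2, a chemokine receptor, was higher (1.83 ± 0.22) and S100a8, a calcium-binding protein, lower (-2.13 ± 0.57). The medians of S100a8 were 0 TPM under the tumour label and 2.89 TPM in the CD8 libraries. When length-centred, Ikzf2 (0.55), Ccr8 (-0.50), Xcl1 (-0.35), Pax5 (0.32), S100a8 (-0.87) and Ccl17 (-0.29) were not called. Pax5 was not called with median-ratio scaling either (0.90), nor were Pax5, S100a8 and Ccl17 with array weights (adjusted p 0.15, 0.17 and 0.23, limma). Ccl17 was also not called without the filter on low values (adjusted p 0.074, limma) or after rescaling without Actb (0.053), nor was Ighm without the filter (0.051). These single-gene names, and others where 5 or fewer of a list were called, were chosen after their values were seen.

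Vessel markers did not move together. Pecam1, an adhesion molecule of endothelium that leukocytes also carry, stood at 562, 986.5 and 1429 TPM against 186, 266 and 2241 TPM, a difference of 1.45 ± 0.38, where CD8-1 alone exceeded every library labelled bulk tumour. With array weights it was not called (adjusted p 0.16, limma). Egfl7, a secreted endothelial protein, was lower (-2.08 ± 0.33), at low levels of 0, 0 and 1.42 TPM against 1.29, 4.32 and 12.1 TPM. Of 9 endothelial genes, 6 were too low to be tested: Cdh5, Kdr, Emcn, Tek, Cldn5 and Esam. Of 4 keratinocyte and epithelial genes, 1 was called lower and none higher, beside 15.2% and 15.5% of all genes. That was Krt10, a keratin of differentiated skin (-1.91 ± 0.19), which was low in both sets. It stood at 0, 0 and 0.71 TPM against 1.21, 3.00 and 4.77 TPM. No mast cell, pericyte or adipocyte gene was called.

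**Figure D2:**
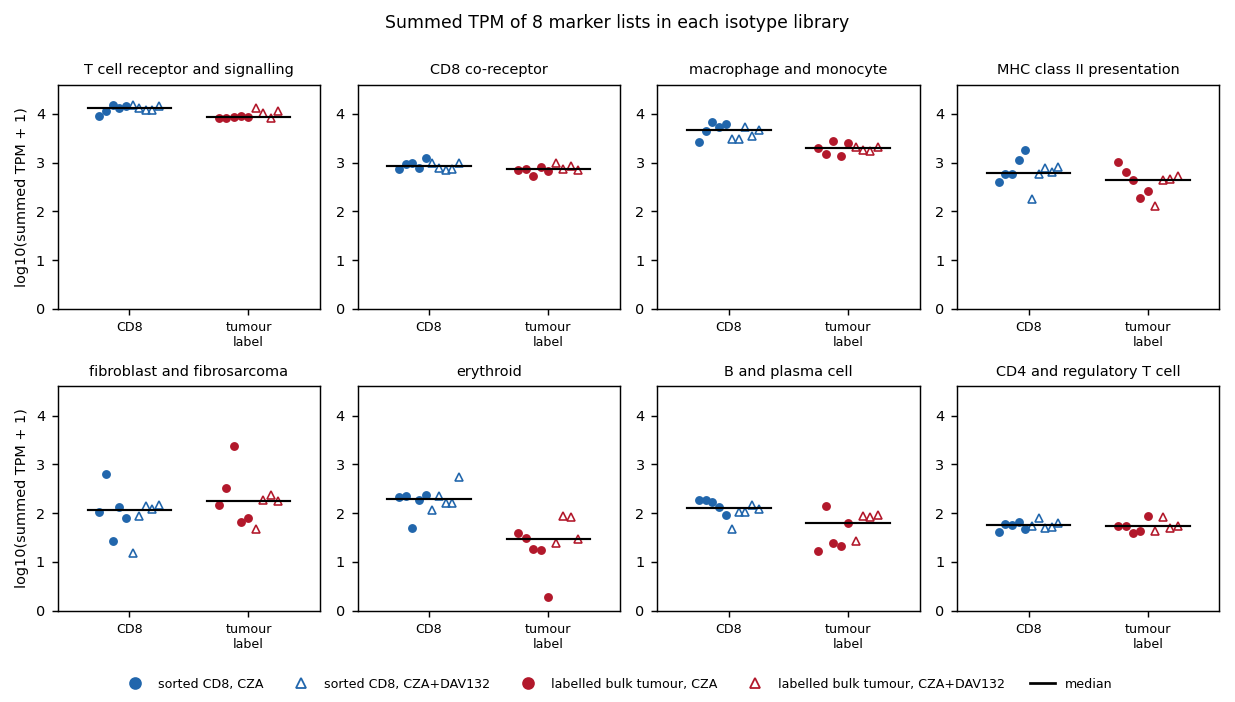
Each point is the log10 of the summed TPM + 1 of a marker list in an isotype library, on the same axis in all 8 panels, with circles for CZA, open triangles for CZA+DAV132 and a bar at the median. Fibroblast sums overlap between the sets, macrophage and erythroid sums are mostly lower in the libraries labelled bulk tumour, and T cell sums are at least 8058 TPM in every library.

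Of 19 cytotoxic granule genes, 3 were called lower and 1 higher, beside 15.2% and 15.5% of all genes, with a median of -0.46 that turned to 0.24 when length-centred. Nkg7, a granule membrane protein of cytotoxic lymphocytes, measured 772, 1329 and 1755 TPM in the set labelled bulk tumour and 3898, 5277 and 7303 TPM in the CD8 libraries, with no overlap and a difference of -2.05 ± 0.16. The granzymes Gzmm and Gzmk were called lower at -2.40 ± 0.29 and -1.51 ± 0.49. Gzmm was low, with medians of 0 TPM under the tumour label and 6.12 TPM in the CD8 libraries. Gzmb, the main granzyme of effector cells, and Prf1, perforin, were not called (-0.50 ± 0.26 and 0.43 ± 0.30). Rab27a, which docks granules at the membrane, was called higher (1.10 ± 0.22), but was under the size without T027 (0.97). When length-centred, Nkg7 (-0.79), Gzmk (-0.71, adjusted p 0.27, limma) and Rab27a (0.84) were not called. Rab27a was also under the size with median-ratio scaling (0.69) and quantile normalization (0.73), and Gzmk was not called with array weights (adjusted p 0.052, limma).

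Exhaustion-linked genes gave 4 higher and 1 lower call among 19, beside 15.5% and 15.2% of all genes, with a median of 0.62. With median-ratio scaling there were 1 higher and 2 lower calls and a median of 0.19, and when length-centred 2 higher and 1 lower, with a median of 0.36. Tox, the transcription factor of chronically stimulated T cells, measured 14.6, 34.7 and 56.4 TPM against 6.17, 11.0 and 13.5 TPM without overlap, a difference of 1.59 ± 0.25. Entpd1, the ectoenzyme CD39, rose by 1.31, Eomes, a T-box factor, by 1.25 and Nr4a2, a nuclear receptor induced by receptor signalling, by 1.19. The latter 3 were under the size for a call with median-ratio scaling (0.89, 0.86 and 0.76) and when length-centred (0.76, 0.85 and 0.79), as Entpd1 (0.96) and Eomes (0.88) were with quantile normalization. Cd160, an inhibitory receptor, was lower (-1.08 ± 0.23), and was under the size for a call without T027 (-0.99) or T985 (-0.92) and after rescaling without Actb (-0.895). The checkpoint receptors Pdcd1, Havcr2, Lag3 and Tigit were not called, at 0.44, 0.63, 0.90 and -0.35. Lag3 was called higher when length-centred (1.09) or rescaled without Actb (1.08).

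Among 14 memory and naive genes, 1 was called higher and 2 lower, beside 15.5% and 15.2% of all genes. Il7r, the interleukin 7 receptor, was called higher (1.41 ± 0.22). Id3, an inhibitor of E proteins, and Dapl1 were called lower (-1.99 ± 0.60 and -2.51 ± 0.49). Tcf7, the factor of stem-like T cells, was not called (0.92 ± 0.25), except after rescaling without Actb (1.10). Il7r was under the size with median-ratio scaling (0.99), and Id3 (-1.18, adjusted p 0.13) and Dapl1 (-1.25, adjusted p 0.054) were not called when length-centred (limma). Of 12 activation genes, 1 was called higher and 1 lower, beside the same shares of all genes. Tnfrsf18, which encodes GITR, was called lower (-1.04 ± 0.17), but was under the size without T022 (-0.98), T027 (-0.99) or T983 (-0.97). When length-centred it was -0.049 (adjusted p 0.84, limma). It was also under the size with quantile normalization (-0.93) and without Actb (-0.86). Tnfsf14, a ligand of the TNF family, was called higher (1.14 ± 0.45) and held in 4 of 19 fits that each left out a library, and it was not called with median-ratio scaling (0.755), quantile normalization (0.91), a pseudocount of 0.1 (adjusted p 0.07, limma) or no filter (adjusted p 0.074, limma).

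Cytokines and chemokines were lower or not called, with 6 of 18 lower, beside 15.2% of all genes. Their median of -0.85 was 0.02 when length-centred. Ltb, lymphotoxin beta, measured 8.30, 29.6 and 51.5 TPM in the set labelled bulk tumour and 254, 365 and 432 TPM in the CD8 libraries, with no overlap and a difference of -3.72 ± 0.25. Ccl4, a chemokine of activated T cells, was lower at -2.38 ± 0.30, and Ccl7 and Ccl1, also chemokines, at -2.99 ± 0.77 and -2.30 ± 0.39. Csf2, which encodes GM-CSF, was lower at -2.24 ± 0.41. Ccl3 was lower at -1.24 ± 0.42, but was under the size without T986 (-0.91) and was 0.017 when length-centred. Ccl5 and the effector cytokine Ifng were not called (-0.96 ± 0.20 and -0.19 ± 0.26), although Ccl5 was with median-ratio scaling (-1.40). When length-centred, Csf2 (-0.98, adjusted p 0.074) and Ccl7 (-1.73, adjusted p 0.086) were not called (limma), and with quantile normalization Ccl3 was not (adjusted p 0.052, limma).

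Actin genes held the largest differences by level. Actb, cytoplasmic beta actin, took between 9.99% and 17.3% of all TPM in the set labelled bulk tumour and between 0.287% and 0.537% in the CD8 libraries. Its levels were 98626, 129040 and 170860 TPM and 2827, 4155 and 5270 TPM, a difference of 4.95 ± 0.12 (adjusted p 5.17e-17, limma). Actg1, the other cytoplasmic actin, was not called (0.53 ± 0.13).

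Further genes of the actin machinery split in both directions. Myh9, non-muscle myosin heavy chain, measured 1343, 1723 and 2074 TPM against 42.5, 51.3 and 75.1 TPM, a difference of 4.99 ± 0.12. Actr2, of the Arp2/3 complex that branches filaments, measured 1935, 2430 and 3016 TPM against 153, 184 and 202 TPM (3.75 ± 0.10). Tmsb4x, thymosin beta 4, which holds actin monomers, went the other way: 5205, 8275 and 11045 TPM against 36209, 48216 and 67492 TPM, a difference of -2.61 ± 0.10. None of these 3 overlapped between the sets. Tln1, talin, was higher (2.24 ± 0.23), as were Wdr1, Ezr, Vim and Wipf1 (1.64, 1.16, 1.12 and 1.11). Tmsb10, the profilin Pfn1, the cofilin Cfl1 and the myosin light chains Myl12b and Myl6 were lower (-2.46, -2.20, -1.99, -1.45 and -1.02). Myl6 kept its call in 13 of 19 fits that each left out a library. Under the size when length-centred were Pfn1 (-0.94), Myl6 (-0.49), Ezr (0.90) and Wipf1 (0.54), and with median-ratio scaling Vim (0.69), Ezr (0.74) and Wipf1 (0.69). So were Myl6 (-0.915) and Wipf1 (0.845) with quantile normalization, and Myl6 (-0.83) after rescaling without Actb. Of 30 genes, 8 were called higher and 6 lower, beside 15.5% and 15.2% of all genes. Between the sets 17 did not overlap (9 higher, 8 lower), beside 7.1% of all genes higher and 4.26% lower.

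**Figure D3:**
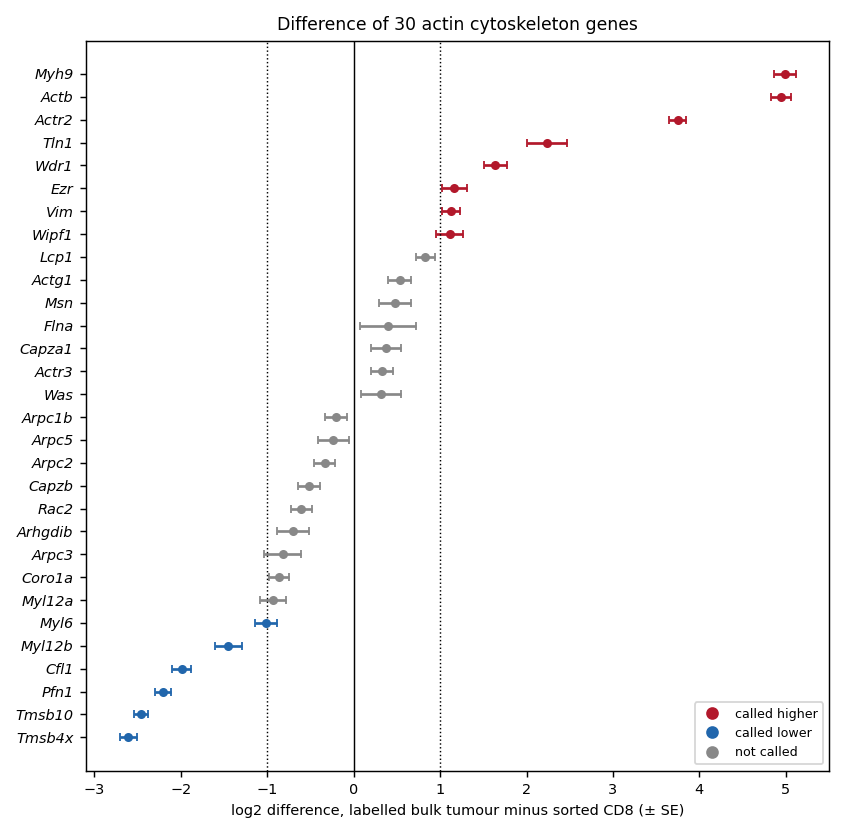
The x axis is the log2 difference of 30 actin cytoskeleton genes, libraries labelled bulk tumour minus sorted CD8 libraries, with bars of 1 SE and dotted lines at the size needed for a call. Myh9 (4.99), Actb (4.95) and Actr2 (3.75) lie far to the right and Tmsb4x (-2.61) and Tmsb10 (-2.46) far to the left.

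By the rule of size for genes without overlap, the other largest rises were of mixed function. Khsrp, an RNA-binding protein, measured 689.8, 721 and 862 TPM in the set labelled bulk tumour and 20.5, 23.3 and 30.4 TPM in the CD8 libraries, a difference of 4.89 ± 0.12. Rps16, a protein of the small ribosomal subunit, measured 1543, 1978 and 2821 TPM against 27.2, 138 and 443 TPM (4.10 ± 0.44). Pdcd4, which restrains translation, Birc6, a giant ubiquitin-conjugating enzyme, and Notch2, a receptor, rose by 4.30, 4.11 and 4.09. Hnrnpl, a splicing regulator that acts on CD45 exons, rose by 4.00, and Cdkn1b, the cell cycle inhibitor p27, by 3.94. Ggact, Rpgrip1 and Acot2, a mitochondrial thioesterase, rose by 4.05, 3.91 and 3.91. None of these genes belongs to a cell type list.

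Among the largest falls, Tgfb1, the cytokine TGF-beta 1, measured 1.35, 2.61 and 4.32 TPM in the set labelled bulk tumour and 35.9, 48.3 and 63.6 TPM in the CD8 libraries, a difference of -3.75 ± 0.21. Lars2, the mitochondrial leucyl-tRNA synthetase, measured 417, 488 and 868 TPM against 5073, 7063 and 9666 TPM (-3.74 ± 0.14). The others included Atp6v0c, the proteolipid of the vacuolar proton pump (-4.39 ± 0.80), Gadd45g, a stress-induced growth arrest gene (-4.21 ± 0.31), Ap2s1, a subunit of the clathrin adaptor (-4.01 ± 0.21), and Cib1, a calcium- and integrin-binding protein (-3.67 ± 0.42). Scand1, Tmem254c, Ccdc85b, Lypla2 and Wfdc17 fell to differences of -4.40, -4.20, -3.85, -3.73 and -3.69, and Ltb, given above, was also among them.

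Counts for the lists of cell functions below stand beside 15.5% of all genes called higher and 15.2% called lower. Oxidative phosphorylation genes of the nucleus, which build the respiratory chain, were called lower in 36 of 54 and higher in none, with a median of -1.26. Ndufs5 of complex I was at -3.49 ± 0.52, and Cox6a1 and Cox6b1 of cytochrome oxidase were at -2.63 ± 0.17 and -2.54 ± 0.19. The median coding length of this list was 992 bases. Among all genes of 63 to 1194 bases, 51.6% were called lower. When length-centred, 12 of the list were called lower and 2 higher, with a median of -0.27. The 13 genes encoded in mitochondrial DNA had a median of 0.52, and mt-Nd2 (1.17 ± 0.09) was the single call, higher. When length-centred 12 of the 13 were called higher, with a median of 1.53, and with median-ratio scaling none was, with a median of 0.09 and mt-Nd2 at 0.74. Splicing and RNA-binding genes were higher in 13 of 27 and lower in 1, with a median of 0.99. With median-ratio scaling 8 were higher, with a median of 0.56, and when length-centred 9, with a median of 0.69. They included Clk1, a kinase of splicing factors (2.52 ± 0.15), Luc7l3 and Luc7l2 (2.33 and 2.25), and the SR protein Srsf2 (1.97).

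Histone genes of S phase, whose messenger RNAs lack a poly(A) tail, were lower in 36 of 53 and higher in 1, with a median of -1.53. Hist1h2ap was listed at 0 in most libraries labelled bulk tumour (0, 0 and 3.97 TPM) and stood at 688, 1056 and 1325 TPM in the CD8 libraries. These genes are near-identical copies, so the division of reads among them is uncertain. Their median coding length was 539 bases, and 51.6% of all genes of 63 to 1194 bases were called lower. When length-centred, 21 of the histone genes were lower. Other cell cycle genes were higher in 10 of 40 and lower in 4, with a median of 0.47. Tubb5, a beta tubulin, was higher (3.80 ± 0.16), as were Ezh2, a histone methyltransferase (2.33 ± 0.29), and the proliferation marker Mki67 (1.18 ± 0.20), and Birc5, survivin, was lower (-1.90 ± 0.32). With median-ratio scaling that list held 4 higher and 8 lower, with a median of 0.06, and Mki67 was under the size there (0.77), with quantile normalization (0.82) and when length-centred (0.27).

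Ribosomal protein genes were called in both directions, 8 higher and 7 lower of 80, beside 15.5% and 15.2% of all genes. Their median was 0.34, and -0.09 with median-ratio scaling. It was 1.26, with 51 called higher, when length-centred. Rpl5 was higher (2.68 ± 0.18) and Rps27l lower (-2.63 ± 0.25). In MHC class I presentation, Psme2 and Psmb8 of the immune proteasome were lower (-1.31 ± 0.14 and -1.05 ± 0.13), and Nlrc5, the transactivator of the class I genes, was higher (1.18 ± 0.21). When length-centred, Psme2 (-0.32), Psmb8 (-0.51) and Nlrc5 (0.42, adjusted p 0.15, limma) were not called. Under the size were also Nlrc5 (0.75) and Calr (0.615) with median-ratio scaling and B2m (-0.83) and Psmb8 (-0.74) with quantile normalization. After rescaling without Actb, B2m (-0.84) and Psmb8 (-0.86) were under it too. Of 20 such genes, 3 were called lower and 2 higher. B2m, the light chain, was lower (-1.02 ± 0.08), but was under the size without CD8-3 or T027 (-0.99 each) and was 0.24 when length-centred. Calr, a chaperone of class I assembly, was higher (1.04 ± 0.18), but was under the size without T024 (0.99), T983 (0.98), T985 (0.99) or T986 (1.00, just below the size). Of 26 interferon response genes, 4 were lower, beside 15.2% of all genes (Oas1a, Xaf1, Isg15 and Bst2 at -1.77, -1.45, -1.01 and -1.04), and Ddx58, the sensor RIG-I, was higher (1.92 ± 0.20). Isg15 kept its call in 11 and Bst2 in 16 of 19 fits that each left out a library, and they were 0.25 and 0.22 when length-centred and under the size after rescaling without Actb (-0.83 and -0.86).

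**Figure D4:**
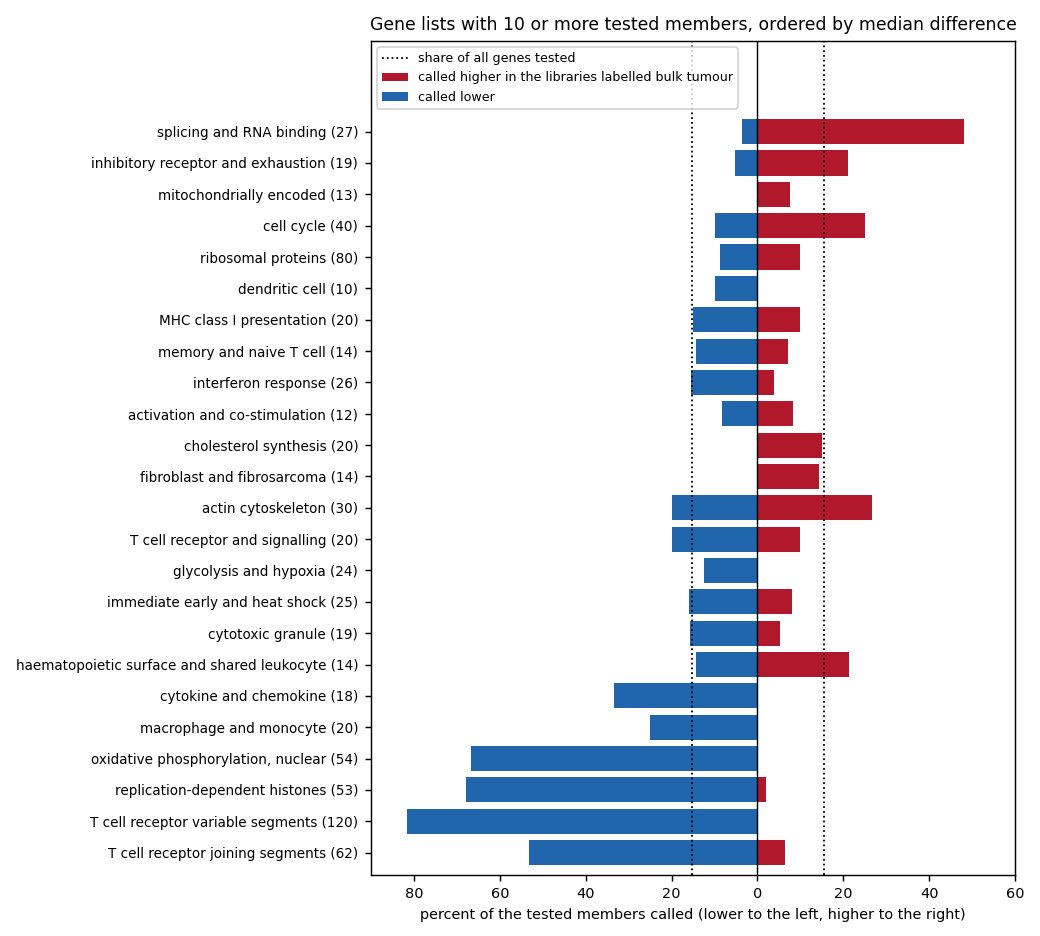
Bars give the percent of each list's tested members (number in parentheses) called higher, to the right, or lower, to the left, in the libraries labelled bulk tumour, with dotted lines at the shares for all genes (15.5% and 15.2%). Splicing genes reach farthest to the right, and variable segments, histones and nuclear oxidative phosphorylation genes farthest to the left.

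Repeat-bearing entries took 0.262%, 0.595% and 13.5% of TPM (lowest, median and highest library) in the set labelled bulk tumour. In the CD8 libraries they took 0.358%, 4.22% and 25.3%, so the ranges overlapped. Calls over the 17 such entries are not given, and 2 entries are printed to show what their TPM rests on. The sequences are spliced transcripts from GENCODE M21 on GRCm38, 5′ to 3′, with the dinucleotide repeat in capitals. Gm17604 lies on chromosome X from 165003765 to 165004829 on the minus strand, and Gm10181 on chromosome 9 from 25089422 to 25089490 on the plus strand.
Gm17604: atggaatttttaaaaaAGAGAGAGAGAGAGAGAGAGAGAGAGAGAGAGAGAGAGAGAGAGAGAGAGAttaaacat
Gm10181: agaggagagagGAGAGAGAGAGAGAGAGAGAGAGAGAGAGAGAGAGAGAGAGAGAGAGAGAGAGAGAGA
The repeat fills 51 of 75 bases of the first and 58 of 69 of the second. Gm17604 stood at 41.6, 160.3 and 477 TPM in the set labelled bulk tumour and at 198, 17729 and 58548 TPM in the CD8 libraries, a difference of -6.05 ± 0.82. Gm10181 stood at 0, 150.0 and 233 TPM against 62.8, 6847 and 121870 TPM, a difference of -5.79 ± 1.26. The ranges of the sets overlapped for both. Such repeats occur at many places in the genome, so the place of origin of these reads is uncertain.

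The direction of a difference followed transcript length. Genes were sorted into 10 equal bins by the length of their longest coding transcript, which 11632 tested genes had. In the shortest bin, of 63 to 1194 bases, the median difference was -1.14, with 4.73% called higher and 51.6% lower. In the longest, of at least 6520 bases, it was 0.77, with 35.7% higher and 2.92% lower. Across genes, which are not independent replicates, Spearman's rho of length with difference was 0.503. The order held within each arm, from -1.23 to 0.68 under CZA and from -1.005 to 0.87 under CZA+DAV132. The gap between the longest and shortest bins, in each library's deviation from the mean of the sets, was 0.858 to 1.18 in all 9 libraries labelled bulk tumour and -1.23 to -0.555 in all 10 CD8 libraries. After each library was centred within bins of length, 1343 genes (10.1%) were called higher and 1650 (12.4%) lower. Cd8a stood at -0.06 and Actb at 5.14 on that scale. By GC content the medians ran from 0.35 in the lowest of 10 bins to -0.51 in the highest. The part of length in the differences of single lists was not tested beyond the length-centred values given here.

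**Figure D5:**
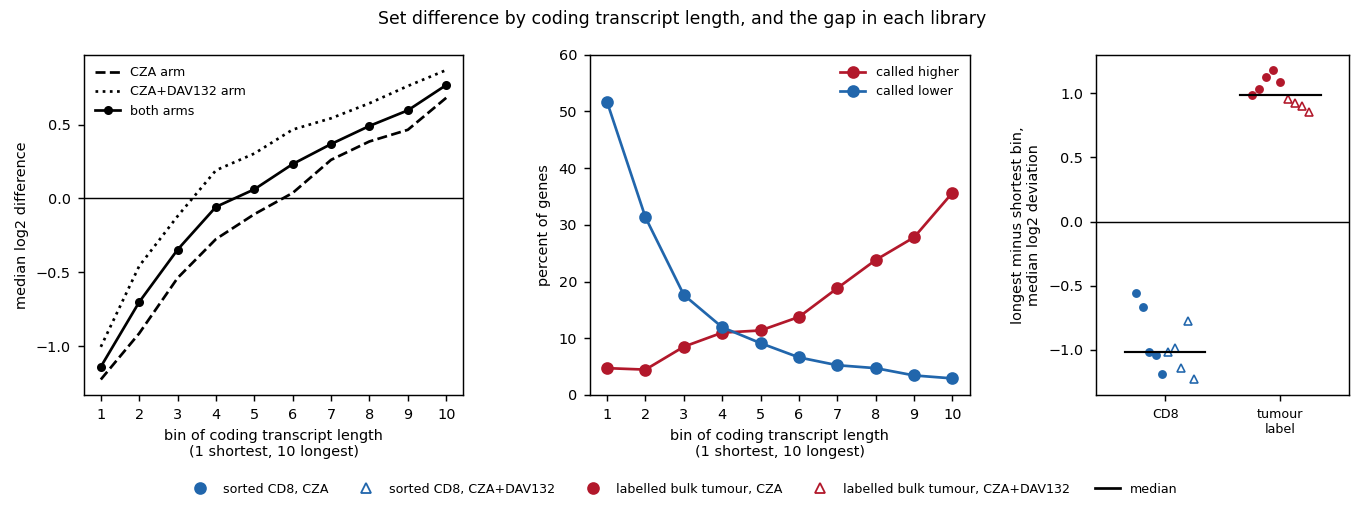
Left, median log2 difference by bin of coding transcript length (1 shortest, 10 longest), for each arm and both; middle, percent of genes called in each bin; right, each library's median deviation in the longest bin minus that in the shortest. The left curves climb from -1.14 to 0.77, and the sets do not overlap at the right.

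Whether the difference between the sets itself differed by arm was tested as an interaction. It passed an adjusted p of 0.05 in limma for 10 genes (0.0753% of those tested), all more positive in the CZA+DAV132 arm, while 1064 had an unadjusted p under 0.05. Over all genes tested the median interaction was itself 0.28, with median differences of -0.10 in the CZA arm and 0.27 in the CZA+DAV132 arm. That median was -0.02 with quantile normalization and -0.06 when length-centred. Mpv17l2, a mitochondrial ribosome assembly factor, had differences of -3.48 in the CZA arm and -0.38 in the CZA+DAV132 arm, an interaction of 3.10 (SE 0.41) with an adjusted p of 0.00411. Grhpr, glyoxylate and hydroxypyruvate reductase, had -4.06 and -0.60, and Dnajc4, a member of the J-domain family, -4.04 and -0.26. In the libraries labelled bulk tumour the medians of Grhpr and Dnajc4 were low, at 0.70 and 0.29 TPM. The number ranged from 1 to 94 as single libraries were left out. No member of a cell type list was among the 10. In the libraries labelled bulk tumour, profiles within the CZA group correlated at 0.655 to 0.720 and within the CZA+DAV132 group at 0.782 to 0.863, and the names of the libraries also differ between these groups.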

How the data were processed

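Expression was measured by RNA sequencing and deposited as TPM, in a table for each set. Per the labels' protocols, a Monarch kit gave total RNA, RiboCop removed ribosomal RNA from 300 ng, and NEBNext Ultra II Directional libraries were made. Per the submitters' processing notes, kallisto 0.45 and GRCm38 were used to make the TPM. Neither the annotation nor the step from transcripts to genes is given in the sources used here. Of 28023 symbols, 27857 matched GENCODE M21, of which 21104 were protein coding.

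The tables held the same genes, and TPM is scaled within a library, so they were joined by symbol. If the authors normalised them apart, levels set across the tables carry that limit. Genes with at least 1 TPM in 4 of the 19 libraries were tested. Values as log2(TPM + 1) were fitted with a mean for each of 4 groups by limma 3.58.1 in R 4.3.3, with a mean-variance trend, two-sided, and Benjamini-Hochberg adjustment over all genes tested. The fit was also run on simulated data, with genes drawn independently and the same spread in both sets. That run cannot show how unequal spread or transcript length acts on the calls. Length-centring subtracted each library's median deviation in 20 bins of coding length.

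Genes were named by a rule. It took, in each direction, the 12 largest differences called without overlap at a mean of at least 5 TPM, leaving out predicted genes, pseudogenes, histones, receptor segments, mitochondrial genes and small RNAs. From each list it took the 3 largest differences and the highest member. It added a fixed set of markers, and the text describes part of these genes. Other genes named in the text were chosen after their values were seen. The members and the lists were chosen with earlier results of these data known. Nuclear non-coding RNAs were listed too, and none of the 12 was matched in the tables. The alternatives were a pseudocount of 0.1, no filter, a mean of 5 TPM, median-ratio scaling, rescaling without Actb or without mitochondrial genes, small RNAs and repeat entries, quantile normalization, array weights, a fit of all 39 libraries, and each library left out.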

Additional observations from a re-analysis of the deposited data

Results flagged for a closer look

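Among 30 combinations of a measure and a set, 5 held a library far from the others, where chance would set apart about 1 in 20. In the libraries labelled bulk tumour, T986 had 431 TPM of Col1a1, T022 had the lowest Lyz2 at 3.45 TPM, and T985 had 13.45% of its TPM in repeat-bearing entries. In the CD8 libraries, CD8-2 had 52.1 TPM of Col1a1 and CD8-1 had 25.3% of its TPM in repeat-bearing entries.

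The difference between the sets differed between the arms, by the interaction in limma, for 10 genes. The median interaction over all genes tested was 0.28. The CZA+DAV132 arm minus the CZA arm was 3.10 for Mpv17l2, 2.15 for Fbxo42, 2.98 for Ankrd39, 3.78 for Dnajc4, 3.46 for Grhpr, 3.09 for Tstd2, 1.69 for Rfx2, 2.54 for Btd, 3.02 for Adck2 and 3.08 for Rgs8. Adjusted p ran from 0.00411 for Mpv17l2 to 0.046 for Adck2 and Rgs8.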

How the results depend on the processing

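No paired analysis was possible because the library numbers of the groups are not shared. Length-centring, and leaving out T985 with CD8-1 or T986 with CD8-2, were chosen after the data were seen. Against 2052 higher calls, length-centring gave 1343 and median-ratio scaling 1099. In the CZA+DAV132 arm, with 1791 higher and 993 lower calls, the higher count was 861 length-centred and 799 with median-ratio scaling, and the lower count was 1679 with median-ratio scaling. The 10 interaction calls became 1 each with array weights, length-centring and median-ratio scaling, 2 with quantile normalization, 5 with the stricter filter, 20 with a pseudocount of 0.1, 28 with all 39 libraries, 63 without T985 and CD8-1 and 19 without T986 and CD8-2. Leaving out single libraries gave 1957 to 2159 higher and 1884 to 2130 lower calls, 1500 to 1861 and 1802 to 2299 in the CZA arm, 1458 to 2026 and 817 to 1098 in the CZA+DAV132 arm, and 1 to 94 interactions. The T cell to fibroblast log2 ratio then ran from -1.698 to -0.890, and was under p = 0.05 by exact permutation in 2 of 19 fits. Reversed when length-centred were Ccl3 (0.017), B2m (0.24), Isg15 (0.25) and Bst2 (0.22). Rpl41, a ribosomal protein gene, was not called in the main fit (-0.017, adjusted p 0.92, limma) but was called higher when length-centred (1.24). The cause of these changes was not tested. Of 130 called genes among 153 followed, 114 kept their call whichever library was left out and 76 in every setting. Length-centring ended 43 of the calls, median-ratio scaling 18, quantile normalization 16 and rescaling without Actb 10. TPM gives no depth, so low genes listed at 0 carry no limit of detection.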

Other observations

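Of 24 glycolysis and hypoxia genes, 3 were lower in the libraries labelled bulk tumour, beside 15.2% of all genes. These were the hypoxia-induced genes Ankrd37 with a log2 difference of -2.44, Hilpda of -2.31 and Bnip3 of -1.95. Hilpda was not called when length-centred (-1.32, adjusted p 0.062, limma). Gapdh, a glycolytic enzyme, was not called at 0.61 but was when length-centred (1.41). Among 25 immediate early and heat shock genes, 2 were called higher and 4 lower, beside 15.5% and 15.2% of all genes. The chaperones Hsp90aa1 and Hsp90ab1 were higher (2.09 and 1.78), and Junb, Jund, Ier2 and Dnajb1 were lower (-2.04, -1.58, -1.68 and -1.36). Whether the calls of Jund, Ier2 and Dnajb1 held under other scalings was not followed. The medians were -0.09 and -0.14, and -0.47 and -0.57 with median-ratio scaling. When length-centred they were -0.30 and 0.02.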
